A study of Rattus norvegicus with 16 samples.

Results

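Ion channel genes of the sodium, potassium, calcium and chloride families were followed in the tibialis anterior, a fast leg muscle, of rats that lack functional dystrophin and of wild-type rats. The genes were the protein-coding rows whose symbol starts with Scn, Kcn, Cacn or Clcn followed by a numbered name. The rule found 139 genes among 31141 in the table: 88 of the Kcn, 26 of the Cacn, 18 of the Scn and 7 of the Clcn family. All rats were of the Wistar-Imamichi background and 9 months old at the end of the diets. The groups were wild-type rats on a normal diet (WT_ND, 4 libraries), rats of genotype Dmd on the same diet (DMD_ND, 6 libraries) and rats of genotype Dmd given the MCTKD diet from weaning (DMD_KD, 6 libraries). The abbreviation MCTKD is not spelled out in the labels; in nutrition it usually denotes a ketogenic diet rich in medium-chain fat. The kind of Dmd mutation was not given in the sources used here. Whether the libraries of a group are separate animals is not stated either, and p-values therefore reflect only the scatter among these samples, some of which may be technical.

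A muscle fibre fires an action potential when acetylcholine opens receptors at its synapse. The sodium channel Scn4a carries the upstroke, voltage-gated potassium channels end it, and the chloride channel Clcn1 and the inward rectifiers hold the membrane near rest. The spike runs into the transverse tubules, where the calcium channel complex built on Cacna1s senses the voltage and opens the ryanodine receptor Ryr1 of the store. Auxiliary subunits set how many of these pores reach the membrane and how they gate. Fibres that are immature or have lost their nerve are known to carry other channels, such as the small-conductance channel Kcnn3.

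The symbols reach further than voltage-gated channels. They include 14 inward rectifiers, 14 tandem-pore leak channels, 8 calcium- or sodium-activated potassium channels, 3 subunits of the epithelial sodium channel, exchangers of the Clcn family, and auxiliary subunits. Scnm1, which also matches, is a splicing factor and no channel. With values in FPKM (fragments per kilobase of gene, scaled for library size, as deposited), 44 of the 139 genes reached 1 FPKM in at least 4 libraries and were tested among 12119 genes. The other 95 stayed below that: 9 were at 0 in every library (Cacng2, Cacng5, Kcnu1, Kcnj1, Kcne1, Kcnk9, Kcna4, Kcnh5 and Kcns2), and 61 never reached 0.5 FPKM. The highest value among the 95 was 1.96 FPKM, of Kcnmb4.

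Reads assigned to genes ranged from 17125084 to 28116085 per library. Dmd was at 7.32 ± 3.32 FPKM (SD, n = 4) in WT_ND and at 1.76 ± 0.208 (n = 6) and 1.36 ± 0.545 (n = 6) in DMD_ND and DMD_KD. The defining fibre genes of the labelled tissue were abundant in all groups, with Ckm at 19960.5 ± 7730.2, 5115 ± 1356 and 9251 ± 5261 FPKM. Several libraries stood apart from their groups. WT_ND replicates 1 and 4 had higher Cacna1s, Cacng1, Cacnb1 and Kcnj11 than WT_ND replicates 3 and 9, and DMD_KD replicate 3 was the highest of its group for 22 of the 44 tested channel genes. DMD_ND replicate 9 was the lowest of its group for 21 of them. Acta1, Ckm, Myh4, Actn3 and Tnnt3 were taken as 5 mature-fibre genes, of which Acta1 and Ckm had the highest values. Their summed FPKM was 97747 and 95791 in WT_ND replicates 1 and 4 against 52739 and 52881 in replicates 3 and 9. It was 83782 in DMD_KD replicate 3 against 26522 to 39557 in the other 5 DMD_KD libraries.

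The first comparison, DMD_ND against WT_ND, asks how the channel genes of mutant muscle differ from those of wild-type muscle on 1 diet. The channels known from the adult fibre membrane were mostly lower in the mutant, while a set of low-level genes was higher. Cacna2d1 had the largest fall and Kcnn4 the largest rise on the log2(FPKM + 1) scale, on which all fold changes here are given and which understates changes of genes with low values. Of the 44 tested genes, 15 rose, 20 fell and 9 did not pass the test (limma, adjusted p under 0.05). Across all genes tested, 65.7% were called, 31.5% higher and 34.3% lower, so the channel counts stand beside a table in which most genes differed. The median log2 fold change was -0.24 for the channel genes and -0.04 for all tested genes. The 2 groups did not overlap for 31 channel genes, 12 higher and 19 lower in DMD_ND, where 55.1% of all tested genes were apart. Of the 15 that rose, 11 had a wild-type mean under 1 FPKM and so entered the test through their mutant libraries, and Cacna1a, which fell, entered through its wild-type libraries. The counts are therefore a description of the tested genes only. Without WT_ND replicates 1 and 4 and DMD_KD replicate 3, 16 rose and 21 fell, beside 32.8% and 34.5% of all tested genes.

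Among the 20 channel genes whose mean over all libraries was 5 FPKM or more, 3 rose, Kcnn3 and Clcn7 among them, and 13 fell. Of all 6244 genes at that level, 23.7% were called higher and 46.2% lower. In a list of 17 channels known from the adult fibre membrane, 12 fell, 1 rose, and Cacnb1, Cacng1, Kcnc4 and Kcnma1 did not pass the test. Of all 12119 tested genes 34.3% fell and 31.5% rose. The list's median was -1.24. The summed FPKM of all 139 genes was 2372 ± 588 (SD, n = 4) in WT_ND and 1008 ± 153 (n = 6) in DMD_ND. Summed over the whole table, FPKM were also lower, at 368688 to 424101 per DMD_ND library against 623029 to 995390 per WT_ND library. The number of the 139 genes at 1 FPKM or more went the other way, from 32 to 34 per WT_ND library to 40 to 43 per DMD_ND library. The same number over all genes was not counted, so whether this gain is particular to the channel genes was not tested.

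**Figure D1:**
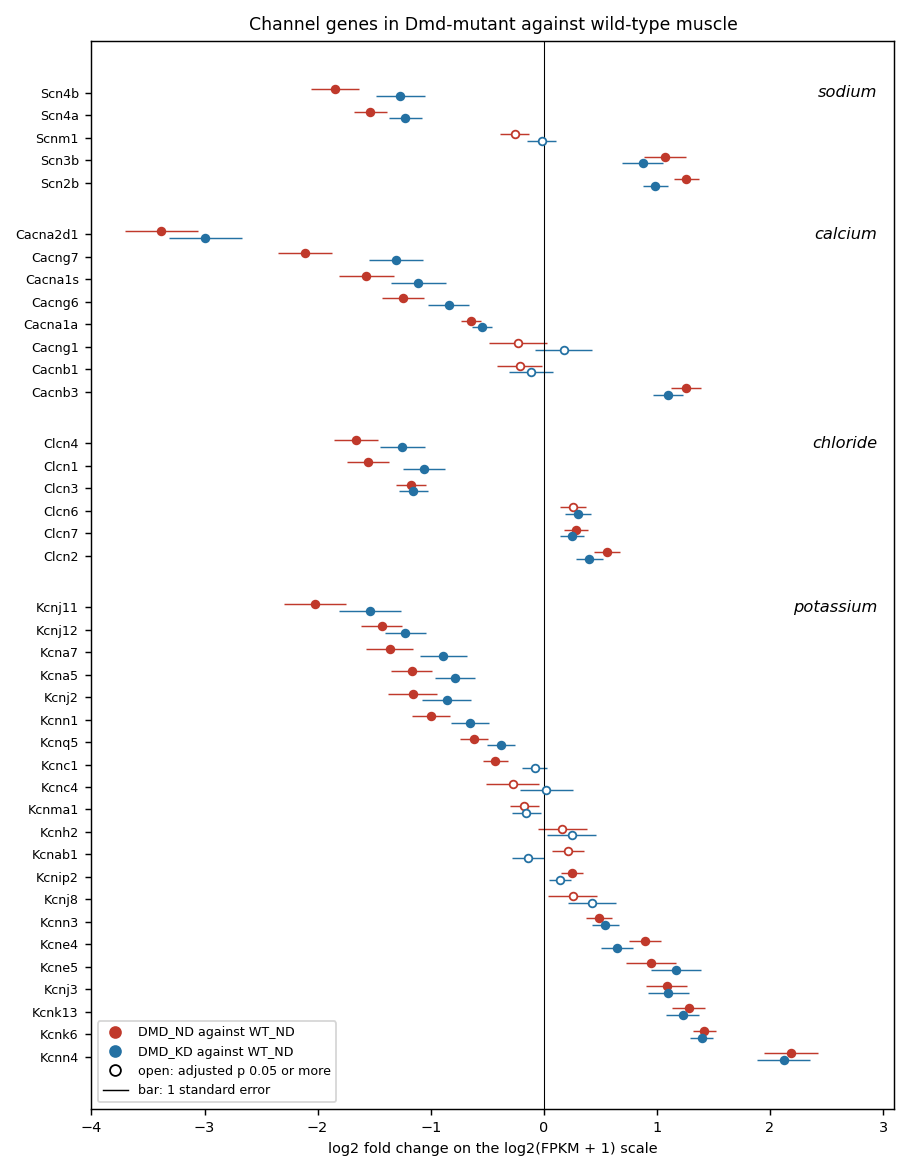
Log2 fold change of 40 of the 44 tested channel genes against WT_ND on the log2(FPKM + 1) scale, for DMD_ND (red) and DMD_KD (blue), by channel family. Bars are 1 standard error, filled points have a limma adjusted p under 0.05. Points run from -3.38 for Cacna2d1 to 2.18 for Kcnn4 in DMD_ND.

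Direction depends in part on how libraries are scaled. The deposited FPKM carry a size factor between libraries, and summed FPKM per library were 623029 to 995390 in WT_ND and 368688 to 424101 in DMD_ND. Scaling each library to 1 total (TPM) moved the median of all tested genes in this comparison from -0.04 to 0.83, and then 24 of the 44 channel genes were called higher and 12 lower, where 70.7% of all tested genes were called higher and 5.94% lower. Relative to the median of all tested genes, the adult fibre channels stood at -1.21 in FPKM and at -1.19 in TPM. On that scale 8 of those 17 genes were called lower and 5 higher, beside the same 5.94% and 70.7% of all tested genes. Cacnb1, Cacng1, Kcnc4 and Kcnma1 were among the 5. The falls of Cacna1a, Cacng6, Clcn3, Kcnj2 and Kcnn1 given below were not called on that scale.

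Among the sodium channel pores, Scn4a (chromosome 10, 91246936 to 91296545 of mRatBN7.2) fell. Its level was 72.5, 60.5, 59.7 and 62.6 FPKM in the WT_ND libraries (replicates 1, 3, 4 and 9, the order kept below), 14.7 to 25.1 (median 22.5) in DMD_ND and 22.5 to 33.4 (median 25.7) in DMD_KD. Every wild-type library lay above every mutant one, and DMD_ND replicate 9 was the lowest of all. The log2 fold change of DMD_ND against WT_ND was -1.53 (SE 0.14, adjusted p = 9.89e-08).

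Genes of immature fibres were higher in the mutant groups. The summed FPKM of 4 genes of regenerating fibres (Myh3, Myh8, Myog and Mymk) was 36.2 in WT_ND replicate 9 and 17.9 to 22.4 in the other WT_ND libraries. That sum was 138 to 223 in DMD_ND and 102 to 169.8 in DMD_KD, and all 4 genes rose in DMD_ND. Of 5 genes of denervated fibres, 4 were in the table (Chrna1, Chrnd, Musk and Ncam1), and all 4 rose; they summed to 7.61 to 11.3 FPKM in WT_ND, 82.3 to 175 in DMD_ND and 61.1 to 112 in DMD_KD. The part of regeneration and denervation in the channel values was not tested.

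The sodium channel beta subunits, single-pass proteins that tune the pore and its place in the membrane, went both ways. Scn4b, the subunit linked to resurgent sodium current in neurons, read 175, 135, 168 and 125 FPKM in WT_ND, 25.7 to 51.3 (median 45.4) in DMD_ND and 48.0 to 98.4 (median 58.2) in DMD_KD, and fell in DMD_ND, with a fold change of -1.85 (SE 0.21, adjusted p = 9.98e-07). Scn2b and Scn3b moved the other way. Scn2b was at 0.123, 0.168, 0.0819 and 0.0553 FPKM in WT_ND and at 1.15 to 2.19 (median 1.66) in DMD_ND, a rise of 1.26 (SE 0.11, adjusted p = 4.01e-08), and Scn3b rose by 1.07 (SE 0.18, adjusted p = 7.41e-05).

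Scn2b and Scn4b lie beside each other on chromosome 8 of mRatBN7.2 (45425629 to 45437765 and 45446215 to 45462292, both on the forward strand), 8450 bases apart. They changed in opposite directions. Scn4b still made up 92.6 to 97.6% of the summed Scn2b and Scn4b FPKM in DMD_ND, against 99.88 to 99.96% in WT_ND. The start regions of these neighbours, of the pores Scn4a and Cacna1s and of Cacna2d1, the channel gene with the largest fall, are shown. Scn2b is included as the low-level neighbour of Scn4b that rose, and the other genes shown all fell. The sequences are RefSeq's on GRCr8, a newer build than that of the deposited table, from 250 bases before to 50 after the start, with each CAGCTG in capitals. CAGCTG is a form of the E-box (CANNTG), the motif that myogenic factors such as MyoD and myogenin are known to bind.
Scn4a (chr10:91796275-91796574, reverse strand): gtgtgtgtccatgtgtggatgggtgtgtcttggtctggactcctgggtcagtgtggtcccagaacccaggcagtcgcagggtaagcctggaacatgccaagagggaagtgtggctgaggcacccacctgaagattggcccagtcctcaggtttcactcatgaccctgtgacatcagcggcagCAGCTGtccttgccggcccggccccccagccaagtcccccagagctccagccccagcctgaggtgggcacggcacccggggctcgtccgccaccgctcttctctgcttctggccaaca
Cacna1s (chr13:50045418-50045717, forward strand): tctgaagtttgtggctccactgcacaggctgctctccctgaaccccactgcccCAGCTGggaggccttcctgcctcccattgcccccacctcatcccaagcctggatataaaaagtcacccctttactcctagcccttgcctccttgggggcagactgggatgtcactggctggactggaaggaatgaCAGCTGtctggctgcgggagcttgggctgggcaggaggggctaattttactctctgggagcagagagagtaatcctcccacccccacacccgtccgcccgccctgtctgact
Cacna2d1 (chr4:20330098-20330397, reverse strand): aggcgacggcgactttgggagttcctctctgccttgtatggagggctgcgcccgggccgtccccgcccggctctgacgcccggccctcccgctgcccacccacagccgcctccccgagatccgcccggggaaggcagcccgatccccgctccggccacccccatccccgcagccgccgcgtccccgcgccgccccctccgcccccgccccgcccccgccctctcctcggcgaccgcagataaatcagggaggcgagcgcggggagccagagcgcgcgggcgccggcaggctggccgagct
Scn4b (chr8:54343623-54343922, forward strand): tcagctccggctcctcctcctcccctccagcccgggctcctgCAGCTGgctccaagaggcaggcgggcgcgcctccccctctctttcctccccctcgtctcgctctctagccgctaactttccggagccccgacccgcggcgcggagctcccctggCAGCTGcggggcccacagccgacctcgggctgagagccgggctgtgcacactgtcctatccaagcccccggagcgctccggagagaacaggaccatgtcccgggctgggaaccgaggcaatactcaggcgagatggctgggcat
Scn2b (chr8:54322133-54322432, forward strand): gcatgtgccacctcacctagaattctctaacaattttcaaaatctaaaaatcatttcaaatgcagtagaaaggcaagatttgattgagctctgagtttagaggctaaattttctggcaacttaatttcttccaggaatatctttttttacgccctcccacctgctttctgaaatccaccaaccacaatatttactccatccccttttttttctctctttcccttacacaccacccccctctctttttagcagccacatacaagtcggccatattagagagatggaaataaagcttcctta

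The windows of Scn4b and Cacna1s held CAGCTG 2 times each and that of Scn4a once, while those of Cacna2d1, which fell, and Scn2b, which rose, did not hold it. The 5 windows also differ in base composition: G and C made up 78.3% of that of Cacna2d1, 70% of Scn4b, 63.7% of Scn4a, 60.3% of Cacna1s and 39% of Scn2b. Promoters were found by symbol for 97 of the 139 genes and for 27 of the 44 tested. CAGCTG, which reads the same on both strands and is also counted as CANNTG, occurred in 6 of 13 promoters of genes that fell (46.2%), in 3 of 9 of genes that rose (33.3%; Cacnb3, Kcne4 and Kcne5) and in 15.1% of all 27457 promoters. The median GC content of these sets was 66, 67 and 52.3%. Any CANNTG was found in 84.6, 77.8 and 71.6%. Among the promoters of all tested channel genes, CAGCTG occurred in 9 of 27 (33.3%), with a median GC content of 66.7%. Among those of all channel genes it occurred in 26 of 97 (26.8%), with a median GC content of 61.7%. These are matches of letters, not measured sites.

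The calcium channel of the transverse tubule is built from the pore and voltage sensor Cacna1s with Cacna2d1, Cacnb1 and Cacng1. Its subunits did not move together. Cacna1s (chromosome 13, 47493949 to 47564318) was at 351, 191, 325 and 213 FPKM in WT_ND, 60.0 to 101 (median 95) in DMD_ND and 86.3 to 223 (median 118) in DMD_KD. All wild-type values exceeded all DMD_ND values, with replicates 1 and 4 far above replicates 3 and 9. The fold change was -1.57 (SE 0.24, adjusted p = 2.56e-05). Cacna2d1, the alpha2delta subunit outside the membrane and the target of gabapentin, fell most of all channel genes. Its values were 44.1, 74.4, 23.8 and 59.0 FPKM in WT_ND, 2.16 to 6.92 (median 3.01) in DMD_ND and 2.04 to 7.80 (median 5.23) in DMD_KD, and DMD_ND differed from WT_ND by -3.38 (SE 0.32, adjusted p = 1.19e-07). Unlike Cacna1s, it was lowest in WT_ND replicates 1 and 4.

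Cacnb1, the beta subunit that brings Cacna1s to the tubule, did not pass the test. It read 87.9, 47.6, 87.5 and 57.8 FPKM in WT_ND and 50.8 to 66.9 (median 57.7) in DMD_ND, with a fold change of -0.21 (SE 0.20, adjusted p = 0.356) and a 95% interval of -0.63 to 0.20. Cacng1, the gamma subunit of skeletal muscle, was 331, 156, 333 and 183 FPKM in WT_ND and 151 to 241 (median 207) in DMD_ND, at -0.23 (SE 0.25, adjusted p = 0.441) and an interval of -0.76 to 0.31. For both the groups overlapped, and without WT_ND replicates 1 and 4 and DMD_KD replicate 3 the changes were 0.15 for Cacnb1 and 0.26 for Cacng1, again not called. Cacng6, a second gamma subunit expressed in muscle, fell, with a fold change of -1.24 (SE 0.18, adjusted p = 1.61e-05), from 45.9 ± 8.0 FPKM (SD, n = 4) to 18.9 ± 3.70 (n = 6).

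Per unit of Cacna1s in the same library, Cacnb1 stood at 0.250, 0.250, 0.269 and 0.272 in WT_ND and at 0.537 to 0.916 (median 0.637) in DMD_ND, and Cacng1 at 0.818 to 1.02 and 2.15 to 2.52. These ratios did not overlap between genotypes and do not depend on how libraries are scaled. They varied little across WT_ND although Cacna1s itself differed by replicate. The ratio of Cacna2d1 to Cacna1s was 0.126, 0.391, 0.0733 and 0.277 in WT_ND and 0.0285 to 0.0731 in DMD_ND. The lowest wild-type value and the highest mutant value almost touched. Cacna1s per Ryr1, the release channel it opens, was 0.643 to 0.875 in WT_ND and 0.592 to 0.732 in DMD_ND, which overlapped.

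**Figure D2:**
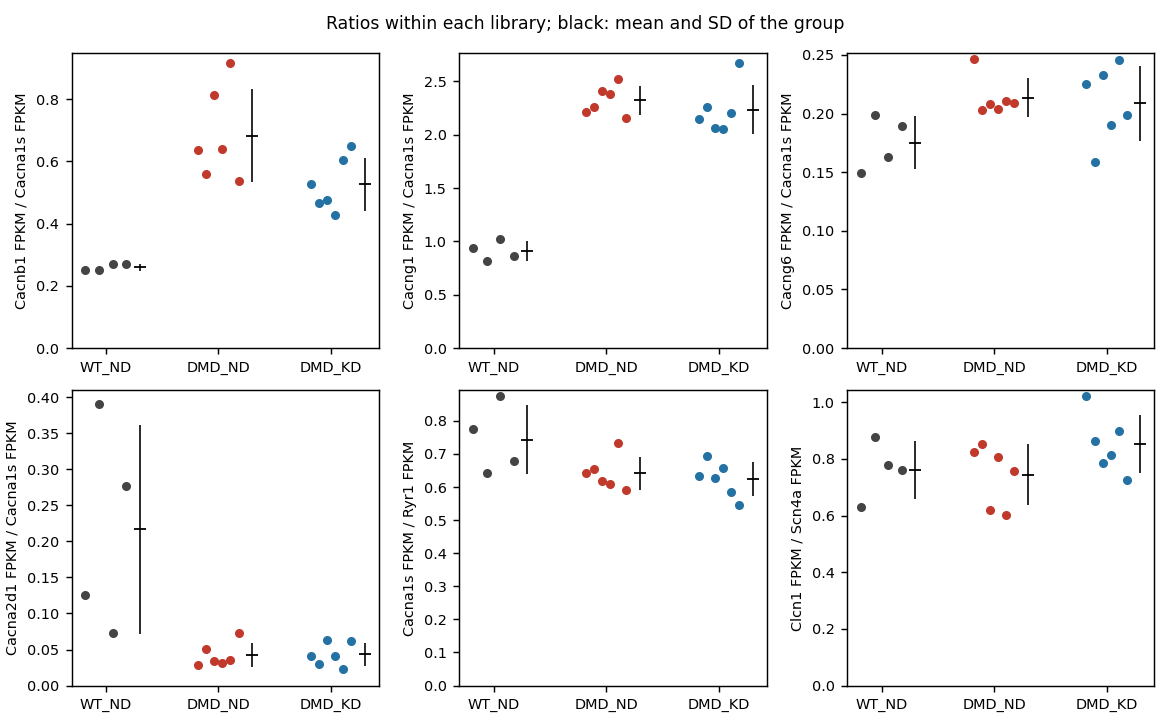
Ratios of FPKM within each library in the 3 groups: points are libraries, black marks are the mean and SD of the group (n = 4, 6 and 6). Cacnb1 per Cacna1s and Cacng1 per Cacna1s separate WT_ND from both mutant groups, with Cacng1 per Cacna1s at 0.818 to 1.02 in WT_ND and 2.15 to 2.52 in DMD_ND, while Cacna1s per Ryr1 and Clcn1 per Scn4a overlap in all 3.

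Other calcium channel genes were at lower levels. Cacng7, best known from its work with glutamate receptors in the brain, was at 10.1, 7.36, 8.32 and 7.28 FPKM in WT_ND and 0.394 to 1.90 (median 1.38) in DMD_ND, a fold change of -2.11 (SE 0.24, adjusted p = 8.68e-07). Cacna1a, the pore of P/Q-type channels at nerve terminals, fell, with a fold change of -0.64 (SE 0.09, adjusted p = 4.69e-06) from a mean of 1.2 FPKM. Cacnb3, a beta subunit found in neurons and smooth muscle, rose from 0.138 ± 0.0960 FPKM (SD, n = 4) to 1.74 ± 0.431 (n = 6), with a fold change of 1.25 (SE 0.13, adjusted p = 3.58e-07).

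Of the chloride family, Clcn1 carries most of the resting conductance of the adult fibre, and its loss causes myotonia. Clcn1 was at 45.6, 53.0, 46.4 and 47.7 FPKM in WT_ND, with little spread, and at 8.84 to 20.7 (median 17.8) in DMD_ND. The fold change was -1.55 (SE 0.19, adjusted p = 1.5e-06). It was close to that of Scn4a, and the ratio of Clcn1 to Scn4a was 0.629 to 0.877 in WT_ND and 0.601 to 0.852 in DMD_ND, with overlap. The remaining members of the family work mostly inside the cell as exchangers of chloride and protons in endosomes and lysosomes, except for the membrane channel Clcn2. Clcn4 fell, with a fold change of -1.66 (SE 0.20, adjusted p = 1.25e-06), from 29.6 ± 5.25 FPKM (SD, n = 4) to 8.83 ± 2.40 (n = 6), and Clcn3 fell too, at -1.18 (SE 0.13, adjusted p = 7.31e-07). The lysosomal Clcn7 rose by 0.29 (SE 0.11, adjusted p = 0.0246) with overlapping groups, and was not called without WT_ND replicate 3 (0.16, adjusted p = 0.131) or DMD_ND replicate 11 (0.25, adjusted p = 0.053), or with a replicate block (adjusted p = 0.0822). Clcn2 rose by 0.56 (SE 0.12, adjusted p = 0.000445) from a mean of 0.343 FPKM, and Clcn6 did not pass (0.26 (SE 0.11, adjusted p = 0.0552)). The span of Clcn3 overlaps Hpf1 on the other strand, and with the strand setting of the counting unknown here, its values are uncertain to that extent.

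Voltage-gated potassium pores repolarise the fibre. Of 37 such genes 8 were tested, with 1 higher, 5 lower and 2 not called in DMD_ND, beside 31.5% higher and 34.3% lower of all tested genes. Kcna7, a pore that is enriched in skeletal muscle, was the most abundant of them in WT_ND: 77.4, 51.7, 62.3 and 50.5 FPKM there against 14.2 to 29.8 (median 24.0) in DMD_ND, a fold change of -1.36 (SE 0.21, adjusted p = 2.13e-05). The groups were far apart. Kcna5 fell, with a fold change of -1.17 (SE 0.18, adjusted p = 2.07e-05), from a mean of 2.55 FPKM in WT_ND. Kcnq5, which forms slow M-type current, fell, with a fold change of -0.62 (SE 0.12, adjusted p = 0.000325). Kcnc1, a fast-gating channel, fell, with a fold change of -0.43 (SE 0.11, adjusted p = 0.00261), with WT_ND values of 2.02, 3.09, 1.74 and 2.60 FPKM and DMD_ND values of 1.34 to 1.75 (median 1.45) that overlapped. Kcnc4 (-0.28 (SE 0.23, adjusted p = 0.31)) and Kcnh2 (0.16 (SE 0.21, adjusted p = 0.514)) did not pass. Under TPM scaling Kcnc1 and Kcnq5 changed sign, to 0.25 and 0.26, and were not called.

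Of the 5 tested inward rectifiers, Kcnj11, the pore of the ATP-sensitive channel that couples energy state to excitability, fell most. Its values were 199, 93.8, 195 and 114 FPKM in WT_ND and 23.4 to 39.4 (median 37.3) in DMD_ND, a change of -2.03 (SE 0.27, adjusted p = 5.95e-06). Abcc9 and Abcc8, the sulfonylurea receptors that complete this channel, also fell, Abcc9 with -1.44 (SE 0.15, adjusted p = 3.31e-07) and Abcc8 with -1.18 (SE 0.19, adjusted p = 3.13e-05). Kcnj12 and Kcnj2 form the classical inward rectifier of muscle. Kcnj12 stood at 69.1, 49.6, 69.4 and 64.3 FPKM in WT_ND and 14.6 to 28.3 (median 23.8) in DMD_ND, a fold change of -1.43 (SE 0.18, adjusted p = 3.37e-06), and Kcnj2 at 7.51, 10.7, 5.17 and 8.67 and 2.30 to 4.42 (median 2.52), a fold change of -1.16 (SE 0.22, adjusted p = 0.000168). Kcnj8, the ATP-sensitive pore of vascular smooth muscle, did not pass (0.26 (SE 0.22, adjusted p = 0.308)). Kcnj3, a G-protein-gated channel of heart and brain, rose from 0.0498 ± 0.0472 FPKM (SD, n = 4) to 1.26 ± 0.390 (n = 6), by 1.09 (SE 0.18, adjusted p = 5.58e-05).

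**Figure D3:**
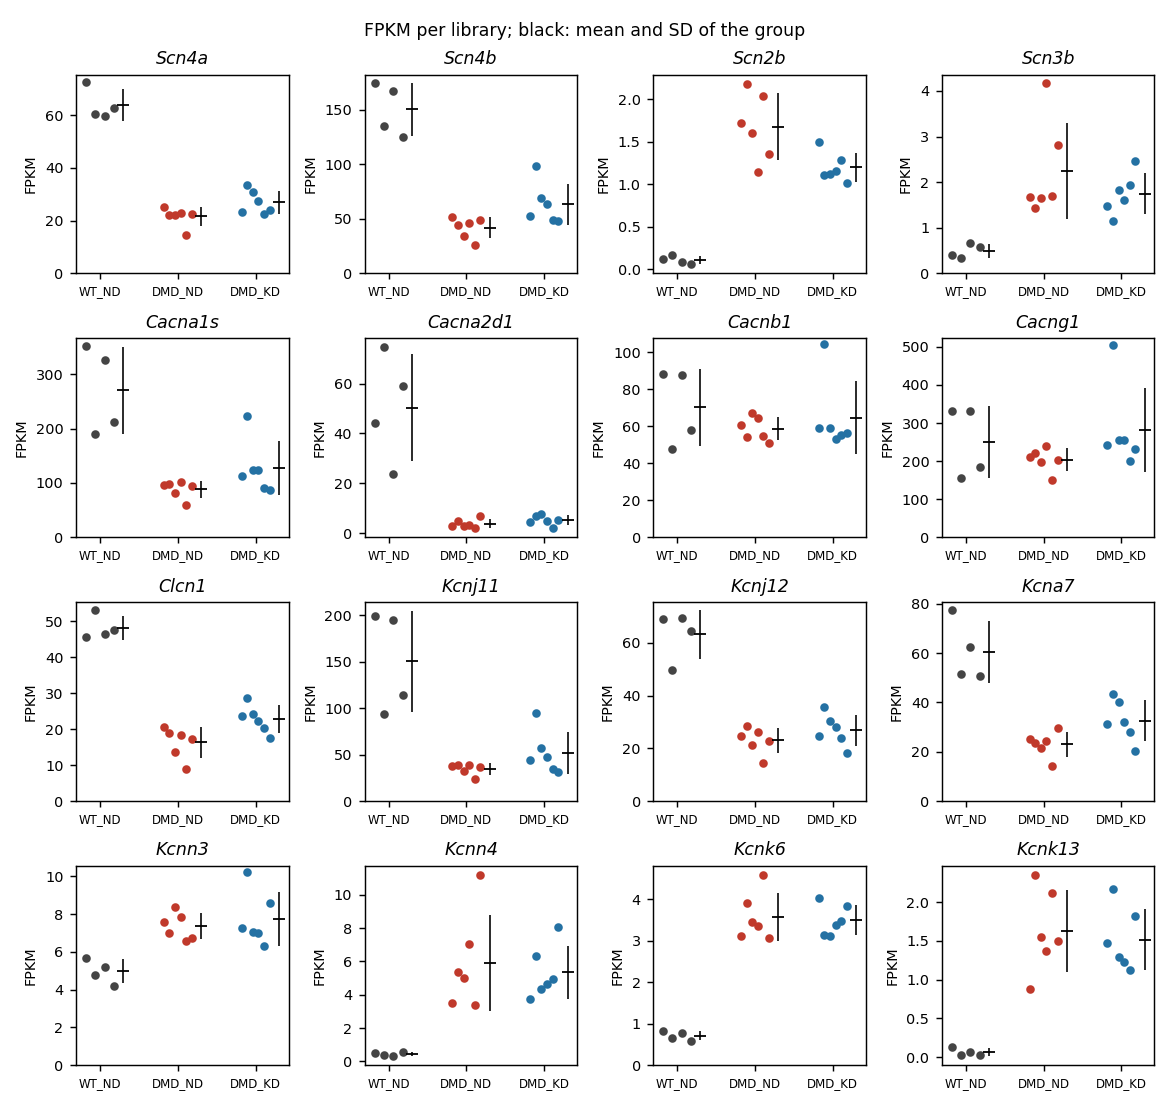
FPKM per library of 16 channel genes: points are libraries of WT_ND (grey), DMD_ND (red) and DMD_KD (blue), and black marks are the mean and SD of the group (n = 4, 6 and 6). Scn4a runs from 59.7 to 72.5 in WT_ND and from 14.7 to 25.1 in DMD_ND, and the DMD_KD library at the top of Cacna1s, Cacnb1 and Cacng1 is replicate 3.

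Channels opened by calcium went both ways, and both tested leak channels rose. Kcnn3, known to return in denervated fibres and to underlie their after-hyperpolarisation, was at 5.68, 4.80, 5.20 and 4.19 FPKM in WT_ND and 6.60 to 8.38 (median 7.28) in DMD_ND, a rise of 0.49 (SE 0.12, adjusted p = 0.00151) with no overlap. Kcnn1 fell instead, by -1.0 (SE 0.17, adjusted p = 5.37e-05). Kcnn4, the intermediate-conductance channel of macrophages, lymphocytes and proliferating cells, was at 0.490, 0.365, 0.320 and 0.540 FPKM in WT_ND and 3.39 to 11.2 (median 5.18) in DMD_ND, and rose by 2.18 (SE 0.24, adjusted p = 5.14e-07). Kcnma1, the large-conductance channel, did not pass (-0.17 (SE 0.13, adjusted p = 0.245)). Among 14 tandem-pore genes, Kcnk6 and Kcnk13 were tested and both rose: Kcnk6 by 1.42 (SE 0.10, adjusted p = 4.54e-09) from 0.705 ± 0.110 FPKM (SD, n = 4) to 3.58 ± 0.580 (n = 6), and Kcnk13, which is known from microglia and macrophages, by 1.28 (SE 0.15, adjusted p = 9.57e-07) from 0.0636 ± 0.0487 to 1.63 ± 0.528.

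The auxiliary potassium subunits Kcne4 (0.89 (SE 0.14, adjusted p = 3.95e-05)), Kcne5 (0.94 (SE 0.22, adjusted p = 0.00124)) and Kcnip2 (0.25 (SE 0.10, adjusted p = 0.0308)) rose, and Kcnab1 did not pass (0.21 (SE 0.14, adjusted p = 0.193)). Kcne subunits alter the current of the pores they join, and Kcnip2 is a calcium-binding partner of Kcnd pores. The groups overlapped for Kcnip2, which was not called without WT_ND replicate 3, 4 or 9 or DMD_ND replicate 3, 6 or 9 (0.19 to 0.25, adjusted p = 0.0504 to 0.116), by an exact rank-sum test (adjusted p = 0.0975) or with a replicate block (adjusted p = 0.0659). Scnm1, which is no channel, had a fold change of -0.26 (SE 0.13, adjusted p = 0.0921); its span overlaps Tmod4, an abundant muscle gene, on the other strand.

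In bulk muscle RNA, fewer cells of a type and less RNA per cell cannot be told apart. All 5 mature-fibre genes in the table fell in DMD_ND, Acta1 by -1.28 (SE 0.30, adjusted p = 0.00137) and Ckm by -1.93 (SE 0.34, adjusted p = 8.68e-05). Their sum was 52739 to 97747 FPKM in WT_ND and 17882 to 33521 in DMD_ND. Clcn1 per 1000 FPKM of Ckm was 1.69, 4.07, 1.77 and 3.53 in WT_ND and 2.76 to 4.02 in DMD_ND. The ranges overlapped, with WT_ND replicates 1 and 4 below all DMD_ND libraries and replicate 3 above them. No other channel gene was set against Ckm. All 9 macrophage markers rose in DMD_ND (Cd68 by 3.25, Csf1r by 2.53, Adgre1 by 1.96), with none at 0 in every library and a sum of 22.5 to 55.8 FPKM in WT_ND, 374 to 789 in DMD_ND and 336 to 555 in DMD_KD. DMD_ND replicate 11, with the highest macrophage sum, also had the highest Kcnn4 value of its group, 11.2 FPKM. Lyz2 alone gave 503 of the 789 FPKM there. Cd68 was also highest of its group in that library, at 49.3 FPKM, but Adgre1 was lowest, at 3.88. In DMD_KD, replicate 1 had the highest macrophage sum and the lowest Kcnn4 value, 3.74 FPKM. Kcnn4 was highest in replicate 10, at 8.07 FPKM, as were Cd68, Itgam and Cd14. Adgre1, Csf1r, C1qa, C1qb and Lyz2 were highest in replicate 1. The markers thus gave no single order of libraries to set beside Kcnn4. All 6 fibro-adipogenic markers rose, with sums of 69.8 to 184 and 1016 to 1563 FPKM in WT_ND and DMD_ND.

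Markers of vessels and nerve moved less evenly. Of 5 endothelial markers 2 fell and none rose (sums of 41.6 to 57.9 FPKM in WT_ND and 33.0 to 47.4 in DMD_ND), and of 5 markers of smooth muscle and pericytes 4 rose (93.0 to 121 and 126 to 169.8). Of 5 tested Schwann cell markers Pmp22 and S100b rose (18.3 to 28.8 and 37.9 to 81.6). All 4 adipocyte markers rose (4.17 to 22.0 and 28.9 to 154), as did both tested T cell markers (0.447 to 0.627 and 2.76 to 5.23). Of 3 satellite cell markers Myf5 rose and Cdh15 fell (4.78 to 8.38 and 6.55 to 10.2). The part of these cells in the channel values was not tested.

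Genes held to be immature or non-fibre channels were mostly near the limit of detection. Of 5 immature or denervated muscle channels 2 were tested, Kcnn3 among them. In a fit without the filter, in which 44.5% of 22275 genes were called, the T-type calcium channel Cacna1h was called higher at 0.29 (adjusted p = 0.0031) with 0.437 ± 0.122 FPKM (SD, n = 4) in WT_ND and 0.760 ± 0.107 (n = 6) in DMD_ND, and its relative Cacna1g at 0.80 (adjusted p = 0.000266). Kcnn2 was not called (0.482 ± 0.292 and 0.525 ± 0.0859 FPKM). Kcnh1, a channel known to act in myoblasts before they fuse, was called lower at -0.63 (adjusted p = 2.74e-06), with 178 reads over 4 WT_ND libraries and 57 over 6 DMD_ND libraries.

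Of 10 channels known from other cell types, Kcnn4, Kcnk13 and Kcnj8 were tested, as given. Without the filter the T cell channel Kcna3 (means of 0.0244 and 0.151 FPKM) and Kcnab2 (0.0872 and 0.450) were called higher. Kcnmb1 of smooth muscle (0.179 and 0.276), Kcnj10 of glia (0.0176 and 0.0162), Scn7a (0.457 and 0.654) and the axonal Kcna1 (0.0889 and 0.122) and Kcna2 (0.0475 and 0.0794) were not. In all, 86 genes under the filter had some reads, and 24 of them were called higher and 5 lower. That fit called 5491 of all 22275 genes higher and 4425 lower. The 86 are what the filter left, so their split is a description only. The 5 lower were Kcnh1, Kcnk5, Kcna10, Clcn5 and Scn3a. The epithelial sodium channel subunits Scnn1a, Scnn1b and Scnn1g were all among the 24; Scnn1b had 3 reads over WT_ND and 365 over DMD_ND. At such counts only large differences could be detected.

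Partner genes of the channels were mostly lower in DMD_ND in FPKM. Of 33 partner genes listed, 32 were in the table and 26 were tested. In DMD_ND 5 were higher and 19 lower, beside 31.5% and 34.3% of all tested genes. The 5 that rose were Rrad (4.72 (SE 0.58, adjusted p = 1.97e-06)), Gem and Rem1, small GTPases that restrain calcium channels by binding their beta subunits, with Piezo1, a stretch-activated channel, and Fxyd6, a regulator of the sodium pump. The lower genes included the sodium pump subunit Atp1b2 (-2.70 (SE 0.31, adjusted p = 1.09e-06)), Ryr1 (-1.37 (SE 0.22, adjusted p = 3.54e-05)), Jph1 and Jph2, which hold the tubule to the store, and Stac3, which couples Cacna1s to it. The more general pump subunit Atp1b1 (-0.29 (SE 0.15, adjusted p = 0.104)) did not pass. Under TPM scaling 10 of the 26 were called higher and 7 lower, where 70.7% and 5.94% of all tested genes were.

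Effects of the diet within mutant rats are the subject of the second comparison, DMD_KD against DMD_ND. No channel gene was called. Cacng7, Kcnc1, Scn4b and Clcn1 had the smallest p-values among those higher in DMD_KD, and Kcnab1 and Scn2b among those lower. By limma 0 of 44 passed, 15 had an unadjusted p under 0.05 (13 higher and 2 lower), and 1 gene of the 12119 tested (0.00825%) was called, with 14.3% of all genes at an unadjusted p under 0.05. The median log2 fold change was 0.13 for the channel genes and -0.01 for all tested genes. With each library weighted by its fit, Kcnc1 was the 1 channel gene called (0.34, adjusted p = 0.0461), in a setting that called 93 of all tested genes (0.767%), against adjusted p-values of 0.187 as fitted and 0.15 by voom.

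Cacng7 was at 0.394 to 1.90 (median 1.38) FPKM in DMD_ND and 1.10 to 4.32 (median 3.24) in DMD_KD. The groups overlapped, and the difference was 0.80 (SE 0.21, adjusted p = 0.156) with a 95% interval of 0.35 to 1.26. Kcnc1 was at 1.34 to 1.75 (median 1.45) and 1.83 to 2.61 (median 2.11) FPKM. It was the channel gene whose 2 groups did not overlap, where 1.48% of all tested genes were apart, and the difference was 0.35 (SE 0.10, adjusted p = 0.187). Its DMD_KD values lay within the wild-type range. For Scn4b the difference was 0.58 (SE 0.19, adjusted p = 0.232) and for Clcn1 0.49 (SE 0.17, adjusted p = 0.235), with values of 8.84 to 20.7 (median 17.8) FPKM in DMD_ND and 17.5 to 28.8 (median 23.1) in DMD_KD. Kcnab1, a beta subunit of Kcna pores, differed by -0.35 (SE 0.13, adjusted p = 0.249) and Scn2b by -0.28 (SE 0.10, adjusted p = 0.25). Kcnn4 was at -0.06 (SE 0.21, adjusted p = 0.903), its interval being -0.51 to 0.38.

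Of the 17 adult fibre channels, 16 had a positive fold change between the diets, and 8 had an unadjusted p under 0.05, none lower. Without DMD_KD replicate 3, the highest library of the group for Cacna1s, Cacng1 and Clcn1, 15 of the 17 were positive and 4 had an unadjusted p under 0.05; among all 44 tested genes 7 were higher and 2 lower at that p, which 11.6% of all tested genes reached. Under TPM scaling, which moved the median of all tested genes by -0.24, 2 channel genes were higher and 8 lower at an unadjusted p under 0.05, a level that 25.3% of all tested genes reached on that scale. For the 17 adult fibre channels under TPM scaling, 13 were positive and 0 had an unadjusted p under 0.05. The median of the 17 relative to all tested genes was 0.36 in FPKM and 0.38 in TPM, values that are close by construction, as above. The 5 mature-fibre genes had positive fold changes as well (Ckm 0.76 (SE 0.30, adjusted p = 0.282), Acta1 0.54 (SE 0.27, adjusted p = 0.368)), none called, and none of the 26 tested partner genes was called. The part of fibre content in these values was not tested.

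**Figure D4:**
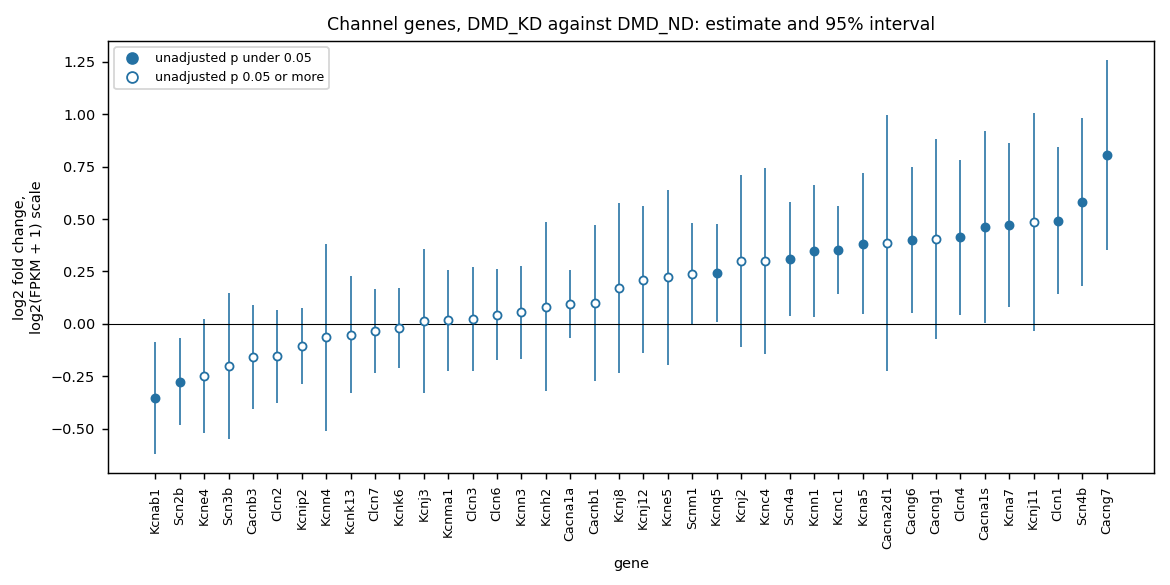
Log2 fold change of 40 of the 44 tested channel genes between DMD_KD and DMD_ND on the log2(FPKM + 1) scale, with 95% intervals, sorted by size; filled points have an unadjusted p under 0.05. Of the filled points 12 lie above 0 and 2 below (Kcnab1 and Scn2b), and none passed after adjustment over all tested genes.

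The third comparison, DMD_KD against WT_ND, asks how far mutant muscle on the diet differed from wild type. It shares its groups with the other 2 comparisons and is no separate evidence. Of the 44 genes 15 were higher and 19 lower, where 58.3% of all tested genes were called (27.3% higher and 31.1% lower). The groups did not overlap for 25 genes, 12 higher and 13 lower, where 37.2% of all tested genes were apart. Scn4a differed by -1.23 (SE 0.14, adjusted p = 2e-06), Clcn1 by -1.06 (SE 0.19, adjusted p = 0.000121), Cacna1s by -1.11 (SE 0.24, adjusted p = 0.000934) and Cacna2d1 by -3.0 (SE 0.32, adjusted p = 7.58e-07). Kcnj11 differed by -1.54 (SE 0.27, adjusted p = 0.000146), with overlapping groups through DMD_KD replicate 3 alone. Kcnc1 (-0.08 (SE 0.11, adjusted p = 0.563)) and Kcnip2 (0.14 (SE 0.10, adjusted p = 0.21)), called in DMD_ND, were not called here, and Clcn6 (0.30 (SE 0.11, adjusted p = 0.0307)) was called here only; the difference between the 2 mutant groups passed the test for none of the 3. Under TPM scaling 23 channel genes were called higher and 8 lower in this comparison, beside 57.2% and 4.73% of all tested genes.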

How the data were processed

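Poly-A RNA of frozen tibialis anterior was sequenced in 16 libraries. The authors deposited FPKM per gene for 31141 genes, per the file headers. Per the submitters' processing notes, the tools included HISAT2 2.0.5 and featureCounts 1.5.0-p3, and the build was mRatBN7.2. Strand setting and annotation release were not given in the sources used here. FPKM times gene length gave whole reads (100% of values within 0.05), so the deposited FPKM are reads divided by a library size factor. Positions are those of the deposited table; promoter sequences are RefSeq's (GRCr8), matched by symbol.

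Samples were grouped by genotype and diet labels. Log2(FPKM + 1) of genes that reached 1 FPKM in 4 or more libraries was fitted with limma 3.58.1 in R 4.3.3, as 1 model of 3 group means (13 residual degrees of freedom, eBayes with trend and robust), with two-sided p-values and Benjamini-Hochberg adjustment over 12119 genes. The method was tested on simulated data. Ratios were described without a test. Settings tried were other pseudocounts, filters, scalings, library weights, voom, a replicate block, an exact rank-sum test and leaving out libraries.

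Genes and lists were chosen with earlier results of these data known. Some of these genes are fitted and counted with the rest but are not reported here by name. Otherwise named were all members of 3 lists (adult fibre, immature or denervated, and non-fibre channels), the 10 largest called rises and falls whose higher group averaged 1 FPKM or more, for the diet the 6 smallest p-values, and the 5 highest means of each group. Other genes named for completeness were chosen after their values were seen.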

Additional observations from a re-analysis of the deposited data

Results flagged for a closer look

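Single libraries far from the rest of their group were found in 9 of 120 checks of a channel gene in a group, where chance gives about 1 in 20, and 4 of the 9 came from DMD_KD replicate 3. In that library Cacng1 was at 504.5 FPKM (next 256), Cacna1s at 223.1 (next 124.5), Cacnb1 at 104.4 (next 59.2) and Kcnc4 at 46.06 (next 23.9). DMD_ND replicate 9 was low for Scn4a, at 14.71 FPKM (next 22.0), and for Kcnq5, at 3.549 (next 4.65). WT_ND replicate 3 was low for Clcn7, at 3.127 (next 4.78). DMD_ND replicate 6 was high for Kcnn1, at 1.546 (next 1.33), and DMD_ND replicate 5 for Kcnc1, at 1.75 (next 1.49).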

How the results depend on the processing

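Of the 35 channel genes called in DMD_ND against WT_ND, 24 kept call and direction in each of the 27 settings in which they were tested; a gene under a stricter filter was not tested there. Without a filter 64 of 130 channel genes were called in that comparison (39 higher), beside 9916 of all 22275 genes (5491 higher). With a mean of at least 5 FPKM 16 of 20 were called (3 higher, 13 lower), beside 4361 of 6244 genes. The number of genes tested sets these counts. TPM scaling gave 24 higher and 12 lower. For DMD_KD against WT_ND 15 were called with a mean of at least 5 FPKM (2 higher), beside 3950 of 6244 genes (1302 higher). Without a filter 29 were higher, beside 4388 of 22275 genes. Under TPM scaling 23 were higher and 8 lower. By voom on the reads recovered from FPKM 36 channel genes and 7817 of all tested genes were called in DMD_ND against WT_ND, 34 and 6931 in DMD_KD against WT_ND, and 0 and 1 between the diets. Library weights called 1 channel gene, higher, and 93 of all tested genes in DMD_KD against DMD_ND. Leaving out 1 library gave 33 to 36, 0 and 30 to 35 calls in the 3 comparisons. Of all tested genes it called 7413 to 8495, 1 to 7 and 6351 to 7731. Changes of sign in DMD_ND against WT_ND were, under TPM scaling, Cacnb1 0.79, Cacng1 0.78, Kcnc4 0.71, Scnm1 0.69, Kcnma1 0.52, Kcnq5 0.26 and Kcnc1 0.25. With library weights they were Cacng1 0.12, Cacnb1 0.0442 and Kcnc4 0.0196. Without WT_ND replicates 1 and 4 and DMD_KD replicate 3, a setting chosen after seeing the data, they were Cacng1 0.26, Cacnb1 0.15, Kcnc4 0.0343 and Scnm1 0.0085. The labels do not say whether replicate numbers pair libraries. Correlations of deviations from group means were 0.016 to 0.23 in the 4 same-numbered pairs of DMD_KD and DMD_ND. In the 5 pairs with WT_ND they were -0.656 to 0.407. So few pairs, some with libraries that stood apart, cannot settle whether the numbers pair animals. With a replicate block 33 channel genes were called in DMD_ND against WT_ND, 0 in DMD_KD against DMD_ND and 30 in DMD_KD against WT_ND. Of all 12119 tested genes 5852, 0 and 5190 were called. The values of Cacnb1 (0.0398) and Kcnab1 (-0.0242) in DMD_ND against WT_ND changed sign with the block. Beyond these constructions the cause was not tested. Genes under 1 FPKM rest on few reads, and differences there were detectable only if large.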
